A study of Mus musculus with 3 samples.

Results

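The gene levels of the RNAseq library labelled CD4 were compared with those of the library labelled M1, and 11587 of the 36835 genes in the table entered the comparison. These were the genes with at least 1 FPKM (the fragments of a transcript scaled to its length and to the library size) in at least 1 of the 2 libraries. A gene was called higher in a library when its log2 ratio of FPKM + 1 was at least 1, that is 2-fold on this scale, which understates the change of low genes. Cells for the 3 libraries of the study, labelled M1, M2 and CD4, were sorted from BALB/C mice carrying tumors of Renca, a mouse renal tumor cell line injected into the kidney, which the study's text gives for the RNAseq as Renca Ch+ L+, its Cherry and luciferase derivative. M1 and M2 macrophages came from 30 tumors and CD4 T cells from 4 spleens of tumor-bearing mice, although another label names renal tumors as the origin of the CD4 T cells. Some labels give day 14 after tumor injection and others day 16. The study gated M1 cells as F4/80 intermediate and CD11b high, M2 cells as F4/80 high and CD11b intermediate, and CD4 cells as positive for the T cell receptor beta chain and CD4. Each label has 1 library, made from pooled animals, so that no difference has a replicate check and no p-value is given. A lower level in such a library can mean fewer cells of a type or less RNA per cell, and these cannot be told apart.

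Macrophages take up dying cells, pathogens and debris and digest them in lysosomes. Macrophages long settled in a tissue are known for complement C1q, the mannose receptor and receptors for apoptotic cells, while monocytes that have just left the blood carry Ly6C and the chemokine receptor CCR2. Monocytes can mature in the tissue into macrophages or into cells with features of dendritic cells, which present antigen on MHC class II molecules. In tumors the names M1 and M2 are used for macrophages with inflammatory and with tissue-repair features.

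The marker genes of macrophages were high in both libraries, and those of T cells were low in both, which goes against the label CD4. Csf1r encodes the receptor that keeps macrophages alive, and its level was 519 FPKM in the library labelled CD4 and 279 FPKM in that labelled M1. Lyz2, which encodes lysozyme, was at 6687 and 5975 FPKM. All 14 measured genes of a macrophage identity list had at least 1 FPKM in both libraries, and their summed level was 10994 FPKM in the library labelled CD4, 9995 FPKM in that labelled M1 and 844 FPKM in that labelled M2. Of 19 measured T-cell genes, 1 had at least 1 FPKM in the library labelled CD4 and 2 had it in that labelled M1, against 19 in that labelled M2. The summed levels of the T-cell list were 19.2, 15.3 and 2662 FPKM in the same order. Most of the sum in the library labelled CD4 was Cd4 itself, at 15.2 FPKM, with 0.870 FPKM in that labelled M1 and 166 FPKM in that labelled M2. Cd247, a signalling chain of the T cell receptor, was listed at 0 in both compared libraries and at 2.74 and 3.14 FPKM with all table rows of the gene summed, and Cd3d was at 0.0972 and 0.0967 FPKM. Foxp3, the transcription factor the study is about, was also listed at 0 in both, and a listed 0 can be a failed estimate. The 10182 rows without an identifier were left out in every setting, so a Foxp3 transcript listed there would not be counted. The 0 therefore does not show that Foxp3 RNA was absent. Because of these levels the libraries are named by their labels only, and every direction given here rests on the labels. Whether labels or columns were exchanged between the libraries, such as those labelled CD4 and M2, was not tested, and a value given for the label CD4 is that of the column with this heading.

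**Figure D1:**
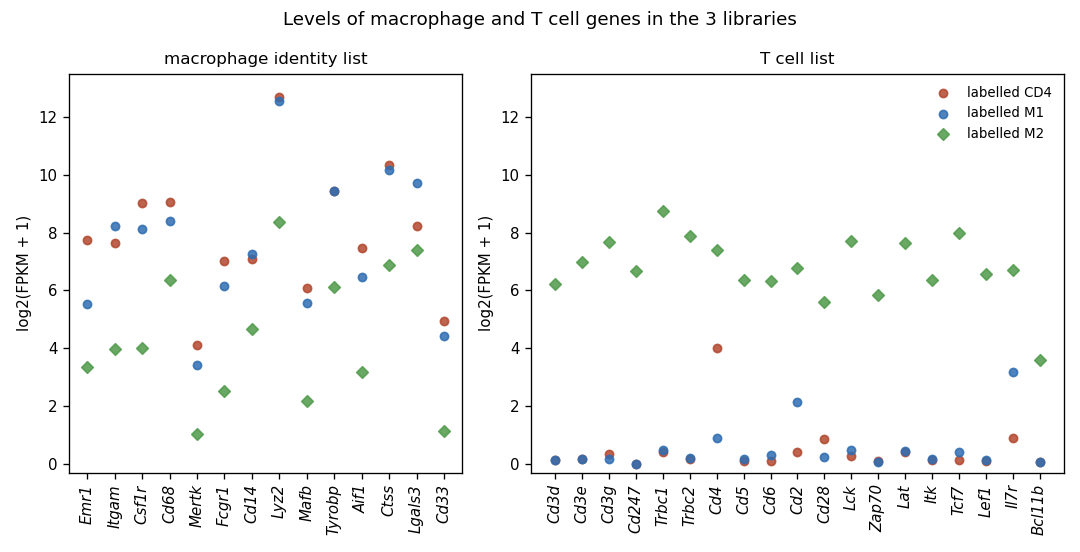
Levels of the 14 macrophage identity genes (left) and the 19 T-cell genes (right) as log2(FPKM + 1), with 1 point for each gene in each of the 3 libraries and 1 library per label. The points of the libraries labelled CD4 and M1 lie together, high for the macrophage genes and near 0 for most T-cell genes, and those of the library labelled M2 lie lower on the left and higher on the right.

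Over the 14 identity genes the median log2 ratio was 0.52, with 2 called higher in the library labelled CD4, Emr1 and Aif1, and 1 in that labelled M1. The latter was Lgals3, which encodes galectin-3, at 298 FPKM in the library labelled CD4 and 850 FPKM in that labelled M1. Emr1 and Itgam encode markers on which the study gated its macrophages, and their levels are given as a description only. Emr1, which encodes F4/80, was at 215 FPKM in the library labelled CD4 and 45.3 FPKM in that labelled M1, a log2 ratio of 2.22. Itgam, the gene of CD11b, was at 201 and 299 FPKM, a log2 ratio of -0.57.

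Across all genes the levels in the 2 libraries lay close together. Of the 11587 genes, 809 were called higher in the library labelled CD4, which is 6.98%, and 839 were called higher in that labelled M1, which is 7.24%. Both directions together made up 14.2%. The median log2 ratio was -0.01, with a standard deviation of 0.90 across genes, so that the libraries were centred alike. Pearson's r across these genes was 0.869 and Spearman's rho was 0.879, as a description over genes of a pair of libraries scaled the same way. At 4-fold, 259 genes were higher in the library labelled CD4 and 270 in that labelled M1. Each of these libraries was farther from the third. Against the library labelled M2, 32.6% of 12438 genes were past 2-fold for the label CD4 and 31.5% of 12443 for the label M1. These 3 comparisons share libraries, so they are not independent of each other.

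Many calls rested on a value listed at 0, and such a 0 can be a failed estimate. Of the 809 genes higher in the library labelled CD4, 260 (32.1%) were listed at 0 in that labelled M1, and of the 839 in the other direction 248 (29.6%) were listed at 0 in that labelled CD4. Rpl10, which encodes a ribosomal protein that every cell uses, was listed at 0 in the library labelled M1 and at 40.3 FPKM in that labelled CD4. No fold is given against a 0. The table also holds several rows for some transcripts, of which the first row with values in all 3 columns was used here. With all rows of a gene summed in place of this, 523 of the 809 genes and 548 of the 839 were called the same way, and 14 of each were called the opposite way. In such a sum a value missing from a row was read as 0, and only 1067 of 90430 identifiers had several complete rows. A shift in only 1 library with all rows summed can therefore come from missing values. Named genes whose call changed in this setting are pointed out beside their values. Among the 11079 genes above 0 in both libraries, 549 were higher in the library labelled CD4 and 591 in that labelled M1, together 10.3%. The share of called genes was 21.7% at a mean level under 3 FPKM, 9.41% from 10 to 30 FPKM and 19.8% at 100 FPKM or more. Many genes lay near the limits: 402 tested genes had a log2 ratio of 0.9 to 1.1 in size. Just inside the level limit was Icam2, at 0.468 FPKM in the library labelled CD4 and 1.001 FPKM in that labelled M1, and just outside it was Ccdc14, at 0.9997 and 0.858 FPKM. With 60800000 to 80200000 fragments estimated for the library labelled CD4 and 60800000 to 65100000 for that labelled M1, a transcript of 2 kb at 10 FPKM had about 1215 fragments or more, so that counting error was small at such levels.

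**Figure D2:**
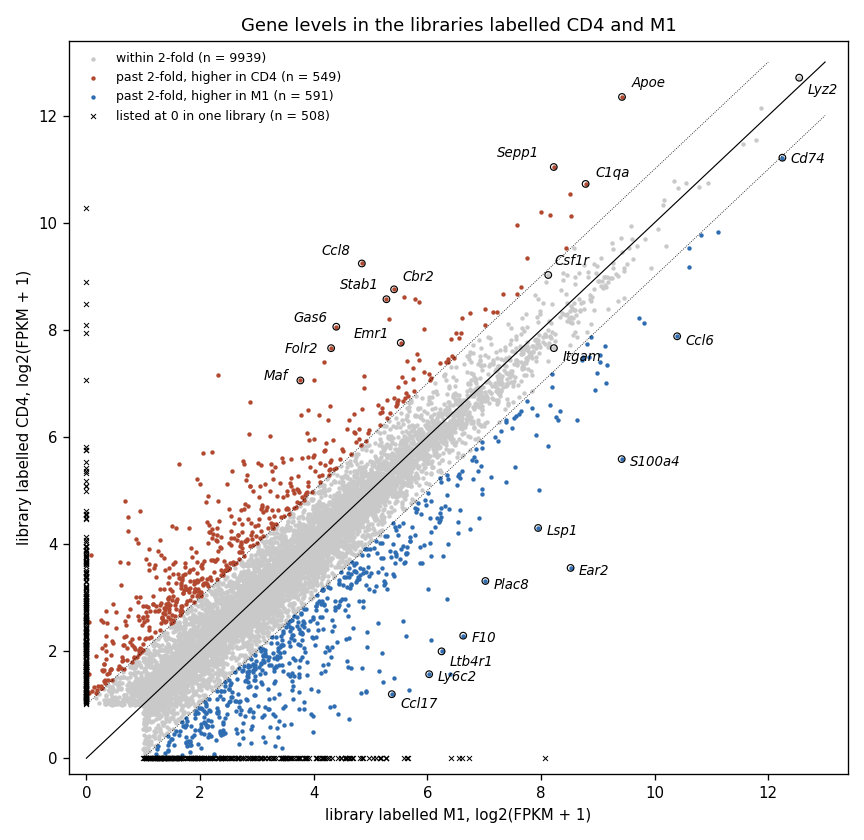
Level of each of the 11587 genes in the library labelled M1 (horizontal) and in that labelled CD4 (vertical), both as log2(FPKM + 1), with 1 point per gene, dotted lines at 2-fold and crosses for the genes listed at 0 in 1 of the libraries. Most points lie between the dotted lines, Apoe, Sepp1 and the C1q gene named there lie above them, and Cd74, Ccl6, S100a4 and Ear2 lie below.

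By the ratio alone, 14 of the 15 largest differences in each direction were of genes listed at 0 in the other library, such as Hsp90b1 higher in the library labelled CD4 and Tpi1 and Atp5f1 in that labelled M1. With all rows summed Atp5f1 was at 74.1 and 84.6 FPKM in the libraries labelled CD4 and M1 and no longer called. Genes above 0 in both libraries are therefore described, a choice made after the values were seen. The 15 of them with the largest ratio towards the library labelled CD4 included Gas6, Folr2 and Stab1 of the resident-type macrophage list described further on. Ccl8, a chemokine that attracts monocytes and other leukocytes, was at 603 FPKM in the library labelled CD4 and 27.8 FPKM in that labelled M1, 21.7-fold higher. Gas6 encodes a ligand that bridges dying cells to receptors of the TAM family, and its levels were 265 and 20.1 FPKM, 13.2-fold. Folr2, a folate receptor, was at 201 and 18.8 FPKM, which is 10.7-fold. Cbr2, a carbonyl reductase, was at 431 and 41.7 FPKM. Stab1, a scavenger receptor known from tissue macrophages, had 379 FPKM against 37.9 FPKM. Hpgds, the hematopoietic prostaglandin D synthase, was at 43.9 and 2.11 FPKM, 20.8-fold, and with all rows summed at 43.9 and 7.12 FPKM, a smaller difference. C6, a late component of the complement cascade, was at 26.7 and 0.599 FPKM, and at 99.0 and 0.936 FPKM with all rows summed. The other genes among the 15 were Gm11711, Npl, Fam167b, Dynlt1f, Slco2b1, Prkcb, 2010110P09Rik and Scamp5, with log2 ratios of 3.50 to 4.85. All 15 were still called when all rows of a gene were summed, Prkcb and Scamp5 with lower log2 ratios of 2.22 and 2.80. Dynlt1f belongs to a group of near-identical genes whose fragments may be split, and its value is uncertain.

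The 15 with the largest ratio towards the library labelled M1 included Ear2, Ly6c2 and Plac8 of the monocyte list. Ear2, an eosinophil-associated ribonuclease gene of monocytes, was at 366 FPKM in the library labelled M1 and 10.7 FPKM in that labelled CD4, 34.1-fold higher, although it has near-identical relatives and the value is uncertain. Ltb4r1 encodes the receptor for leukotriene B4, a lipid that draws in neutrophils and monocytes, and its levels were 75.2 and 2.99 FPKM, 25.2-fold. F10 and F7, coagulation factors X and VII, are neighbours on chromosome 8, at 13037308-13056676 and 13026034-13035809 in build NCBIM37. F10 was at 98.2 FPKM in the library labelled M1 and 3.88 FPKM in that labelled CD4, and F7 was at 65.9 and 3.61 FPKM, so both lay far to the same side. Cd209a, a lectin receptor of monocyte-derived dendritic cells, was at 23.7 and 0.653 FPKM, 36.3-fold. Plac8, which is high in monocytes, was at 129 and 8.91 FPKM. Lsp1, a protein that binds actin in leukocytes, was at 246 and 18.7 FPKM, which is 13.2-fold. Sumo2 encodes a small protein that is attached to others and is used by every cell, and it was at 83.4 and 1.96 FPKM, or 83.4 and 5.90 FPKM with all rows summed. The remaining genes of the 15 were Ly6c2, Cytip, Ccl17, Glipr2, 1810033B17Rik, Hopx and Hr, with log2 ratios of -4.46 to -3.66, and all 15 were called with all rows summed as well, F7 and Cytip with log2 ratios of -3.09 and -3.16.

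**Figure D3:**
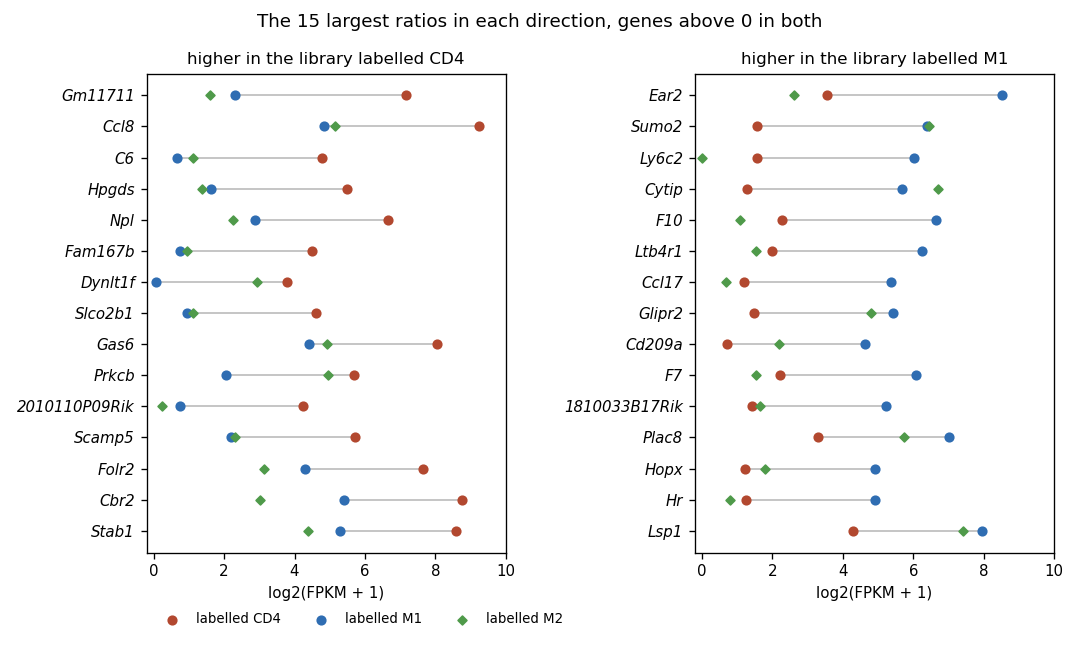
The 15 genes with the largest log2 ratio in each direction among protein-coding genes above 0 in both libraries, as log2(FPKM + 1), with 1 point per library and a line between the libraries labelled CD4 and M1. Of the genes on the left Ccl8 is highest in the library labelled CD4, at 603 FPKM, and of those on the right Ear2 is highest in the library labelled M1, at 366 FPKM, while the library labelled M2 lies on either side.

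Genes known from tissue-resident macrophages were higher in the library labelled CD4. Of 23 tested genes of this list, 18 were called higher there and 0 in the library labelled M1, with a median log2 ratio of 2.03 against -0.01 over all genes. This list and the others were chosen with earlier results of these data known, so their counts and medians are a description only. Over all genes, 6.98% were called higher for the label CD4 and 7.24% for the label M1. At a mean level of 100 FPKM or more, 19.8% were called in either direction. These shares also stand beside the counts of the lists below. Mrc1, the mannose receptor, was at 649 FPKM in the library labelled CD4 and 215 FPKM in that labelled M1, a log2 ratio of 1.59. Cd163, the receptor for hemoglobin bound to haptoglobin, was at 20.3 and 3.34 FPKM, and its log2 ratio was 2.30. Sepp1, a selenium transport protein secreted by macrophages, reached 2104 FPKM against 298 FPKM. Cx3cr1, the receptor for fractalkine, was at 140 and 28.6 FPKM, 4.89-fold. Maf, a transcription factor of mature macrophages, was at 132 and 12.6 FPKM, 10.5-fold. Trem2, a lipid-sensing receptor, was at 129 and 47.7 FPKM, and Vcam1, an adhesion molecule, was at 28.8 and 3.42 FPKM. Siglec1, a sialic acid receptor, was at 52.8 FPKM in the library labelled CD4 and listed at 0 in that labelled M1, and with all rows summed it was at 126 and 10.8 FPKM. Lyve1, a hyaluronan receptor, was called at 4.82 and 1.87 FPKM, and its log2 ratio with all rows summed was 0.92, under the call. The members that did not follow were Axl, a TAM receptor for Gas6, at 115 and 147 FPKM, Cd5l, at 3.48 and 3.75 FPKM, and Timd4, Pltp and Cd81, with log2 ratios of 0.49 to 0.89. Marco, a scavenger receptor, was under 1 FPKM in both libraries.

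Of 18 tested complement genes 6 were higher in the library labelled CD4, among them the C1q genes, C4b and Vsig4, and 2 in that labelled M1, Itgax and Itgb2. The median log2 ratio was 0.69. C1qa, C1qb and C1qc encode the chains of C1q, which starts the classical cascade and also tags dying cells. C1qa was at 1690 FPKM in the library labelled CD4 and 440 FPKM in that labelled M1, a log2 ratio of 1.94. C1qb was at 1481 and 363 FPKM, and C1qc at 1127 and 284 FPKM, with log2 ratios of 2.03 and 1.98, so the 3 chains differed by almost the same factor in the rows used. With all rows summed the log2 ratios were 1.94 for C1qa, 4.19 for C1qb and 2.34 for C1qc. The 3 genes lie side by side on the reverse strand of chromosome 4, with C1qb at 136436044-136442102, C1qc at 136445719-136448980 and C1qa at 136451832-136454718 in build NCBIM37. C4b, which is cleaved in the next step of the cascade, was at 168 and 17.1 FPKM, 9.82-fold. Itgax and Itgb2, the chains of an integrin that binds cleaved C3, went the other way, Itgax at 29.5 and 124 FPKM and Itgb2 at 95.9 and 285 FPKM. The receptors C3ar1 and C5ar1 were at 113 and 67.9 FPKM and at 86.1 and 45.2 FPKM, both under the call.

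The promoters of C1qb and C1qc are shown because these neighbouring genes were both higher in the library labelled CD4. They were taken from RefSeq in build GRCm38.p6 around the gene start, for C1qb at chr4:136886151-136886450 and for C1qc at chr4:136892865-136893164, both on the reverse strand. Capitals mark GAGGAA, the core bound by PU.1, the main transcription factor of myeloid cells, found on either strand. Each held 1 match, and the motif occurs in 28.3% of the 32851 promoters of that table, so a match is a description only.
C1qb: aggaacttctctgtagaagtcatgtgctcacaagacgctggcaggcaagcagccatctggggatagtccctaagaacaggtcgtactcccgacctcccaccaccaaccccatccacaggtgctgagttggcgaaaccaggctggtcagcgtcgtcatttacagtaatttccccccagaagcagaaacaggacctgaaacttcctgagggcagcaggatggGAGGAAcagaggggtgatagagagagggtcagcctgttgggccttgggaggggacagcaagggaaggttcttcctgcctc
C1qc: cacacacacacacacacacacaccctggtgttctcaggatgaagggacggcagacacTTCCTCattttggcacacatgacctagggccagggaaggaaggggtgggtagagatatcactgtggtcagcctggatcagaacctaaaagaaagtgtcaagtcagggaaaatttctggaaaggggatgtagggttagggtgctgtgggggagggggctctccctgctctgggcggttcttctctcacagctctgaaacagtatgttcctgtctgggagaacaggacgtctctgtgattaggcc

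Receptors for antibodies were also on the side of the library labelled CD4. Of 7 tested Fc receptor genes, 4 were higher there and 0 in the library labelled M1, and the median log2 ratio was 1.52. Fcgr3 and Fcgr4, activating receptors for IgG, were at 296 and 97.2 FPKM and at 42.5 and 14.2 FPKM. Fcgrt, the neonatal receptor that recycles IgG, was at 365 and 56.9 FPKM, 6.41-fold. Fcer1g, the signalling chain that the activating receptors share, was at 530 and 498 FPKM and thus nearly level. Fcgr2b, the inhibitory receptor, had a log2 ratio of 0.36, which was -2.39 with all rows summed, so its direction depends on the rows used.

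Lysosomal genes leaned to the library labelled CD4. Of 27 tested genes 7 were called higher there and 0 in that labelled M1, and 24 had a log2 ratio above 0, with a median of 0.58. Over all genes 6.98% were called higher for the label CD4. Among genes at a mean level of 100 FPKM or more, 19.8% were called in either direction. Lgmn, the asparagine endopeptidase legumain, was at 1175 FPKM in the library labelled CD4 and 254 FPKM in that labelled M1, 4.62-fold. Ctsb, the protease cathepsin B, was at 1116 and 370 FPKM, and Cd63, a membrane protein of late endosomes, was at 186 and 55.2 FPKM. Psap, a precursor of activators of lipid digestion, was at 2834 and 3026 FPKM, and Ctss, the cathepsin that trims the invariant chain, at 1286 and 1136 FPKM, so these abundant genes were nearly level. Hexa, an enzyme that breaks down gangliosides, was called with a log2 ratio of 1.16, and with all rows summed it was at 0.96.

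Lipid genes were called on both sides. Apoe, an apolipoprotein that carries cholesterol out of macrophages, was at 5211 FPKM in the library labelled CD4 and 687 FPKM in that labelled M1, 7.59-fold. Abca1, the transporter that loads cholesterol onto apolipoproteins, was at 60.8 and 14.1 FPKM, and Ch25h, which makes 25-hydroxycholesterol, was at 32.9 and 6.37 FPKM. Some genes for the uptake and storage of lipid were on the other side. Lpl, the lipase that frees fatty acids, was at 3.73 and 23.6 FPKM, Cd36, a fatty acid receptor, at 3.51 and 10.8 FPKM, and Soat1, which esterifies cholesterol, at 22.7 and 58.4 FPKM. In all, 5 of 21 tested genes were higher in the library labelled CD4 and 4 in that labelled M1, and the median was 0.14. Of 15 iron and heme genes, 2 were higher in the library labelled CD4, Cd163 and Slc40a1, and the median was 0.24. Slc40a1 encodes the iron exporter ferroportin and was at 12.9 and 1.49 FPKM. Hmox1, which degrades heme, was at 201 and 239 FPKM, and Fth1, a ferritin chain, at 1719 and 1506 FPKM. The third call, Blvrb, rested on a 0 and had the opposite sign with all rows summed. Over all genes 14.2% were called in either direction, and the calls among the iron and heme genes are a description only.

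Monocyte genes were higher in the library labelled M1. Of 20 tested genes of this list 15 were called higher there and 2 in that labelled CD4, with a median log2 ratio of -1.48. Ly6c2, which encodes the Ly6C antigen of inflammatory monocytes, was at 64.5 FPKM in the library labelled M1 and 1.97 FPKM in that labelled CD4. Ccr2, the receptor that brings monocytes out of the bone marrow, was at 526 and 183 FPKM, 2.88-fold. S100a4 and S100a6 encode calcium-binding proteins, and they were at 684 and 47.0 FPKM and at 567 and 128 FPKM. Fn1, which encodes fibronectin, was at 558 and 206 FPKM, and Thbs1, thrombospondin, at 59.3 and 11.5 FPKM. Vcan, a proteoglycan of monocytes, was at 12.2 FPKM in the library labelled M1 and listed at 0 in that labelled CD4. F13a1, a coagulation factor subunit that macrophages also make, went the other way, at 54.3 and 378 FPKM. Ly6c1, the neighbour and near-copy of Ly6c2, was called higher in the library labelled CD4 from a 0 in that labelled M1, but was at 4.95 and 49.3 FPKM for the labels CD4 and M1 with all rows summed, so its call is uncertain. Treml4, a receptor of patrolling monocytes, was at 7.82 and 7.54 FPKM.

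Neutrophil and dendritic cell genes were also higher in the library labelled M1, at lower levels. Of 15 tested neutrophil genes 13 were higher there and 0 in that labelled CD4, with a median log2 ratio of -1.92. Csf3r and Lcn2 were not called, with log2 ratios of 0.35 and 0.22. With all rows summed Csf3r was called higher in the library labelled CD4, at 57.6 FPKM against 19.7 FPKM. The summed level over the 22 measured genes of that list was 259 FPKM in the library labelled M1 and 78.9 FPKM in that labelled CD4. S100a9, a chain of calprotectin, was at 28.1 FPKM in the library labelled M1 and 6.08 FPKM in that labelled CD4. Cxcl2, a chemokine that macrophages make as well, was at 57.4 and 14.4 FPKM, and Clec4e, a receptor for mycobacterial lipids, at 29.5 and 4.11 FPKM. The granule genes Camp, Ngp, Ltf, Elane and Mpo, which define neutrophils and their precursors, and Ly6g were each under 1 FPKM in both libraries in the rows used. With all rows summed Elane was at 336 FPKM in the library labelled CD4 and 366 FPKM in that labelled M1, so its low value depends on the rows, and the other 5 were unchanged. Of 9 tested dendritic cell genes 7 were higher in the library labelled M1, with a median of -1.28. Itgax, which encodes CD11c, was at 124 and 29.5 FPKM, Cd24a at 75.0 and 21.7 FPKM and Ccr7, the receptor that guides cells to lymph nodes, at 6.44 and 0.464 FPKM. Zbtb46, a transcription factor of conventional dendritic cells, was at 1.42 and 1.21 FPKM, and Flt3, Xcr1 and Clec9a were under 1 FPKM in both. The part that cells of these types had in the other differences was not tested.

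MHC class II genes were higher in the library labelled M1, at high levels in both. Of 12 tested genes 7 were called higher there and 0 in that labelled CD4, with a median of -1.06. H2-Aa, a class II chain, was at 2224 FPKM in the library labelled M1 and 910 FPKM in that labelled CD4, 2.44-fold. Cd74, the invariant chain that guards the binding groove, was at 4867 and 2373 FPKM, which is close to the call limit with a log2 ratio of -1.04. H2-DMb1 and H2-DMb2, chains of the molecule that loads peptides, were at 240 and 64.6 FPKM and at 184 and 42.2 FPKM. Ciita, the coactivator that switches on class II genes, was at 48.8 and 14.4 FPKM, 3.40-fold, in the same direction as its known targets. Ctss and Ifi30, the enzymes that prepare antigens and the invariant chain, were nearly level, with log2 ratios of 0.18 and -0.12. The ubiquitin ligase gene March1, which lowers class II at the surface, was at 24.9 and 24.1 FPKM.

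Genes of classical and of alternative activation were both more often higher in the library labelled M1. Of 15 tested classical genes 6 were higher in the library labelled M1 and 2 in that labelled CD4, with a median of -0.77, and of 17 alternative genes 8 were higher in the library labelled M1 and 4 in that labelled CD4, with a median of -0.84. The latter median was -0.21 at 1 FPKM in both libraries and -0.23 at a minimum of 10 FPKM, where that of the classical genes was -0.50. Arg1, the arginase often used to mark M2 macrophages, was at 321 FPKM in the library labelled M1 and 88.5 FPKM in that labelled CD4, 3.63-fold. Nos2, the nitric oxide synthase often used to mark M1 macrophages, was at 3.27 and 1.18 FPKM, a log2 ratio of -0.97, and thus also lower in the library labelled CD4 without a call. Retnla and Chi3l3, secreted proteins induced by interleukin 4, were at 34.2 and 4.78 FPKM and at 9.04 and 0.165 FPKM. Mgl2, a lectin receptor induced by the same cytokine, was at 292 and 121 FPKM. In contrast Mrc1, Clec10a, Il4ra and Cd83 were higher in the library labelled CD4. Il4ra, the receptor chain for interleukin 4 itself, was at 69.6 FPKM there and 23.0 FPKM in the library labelled M1. Of the inflammatory genes, Il1b was at 230 and 92.3 FPKM and Ptgs2, cyclooxygenase 2, at 6.68 and 0.714 FPKM in the libraries labelled M1 and CD4. Il1a, the sister cytokine of Il1b, was on the opposite side at 3.81 and 11.8 FPKM. So was Cd38, at 8.68 and 40.0 FPKM in the same order, a log2 ratio of 2.08. Tnf was at 18.6 and 11.9 FPKM, Il6 at 1.08 and 0.216 FPKM (a log2 ratio of -0.77, and -1.18 with all rows summed), and Il12b under 1 FPKM in both. Cd80, a costimulatory ligand, was called at 29.5 and 3.22 FPKM but was at 58.3 and 53.5 FPKM with all rows summed, so the call depends on the rows used.

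**Figure D4:**
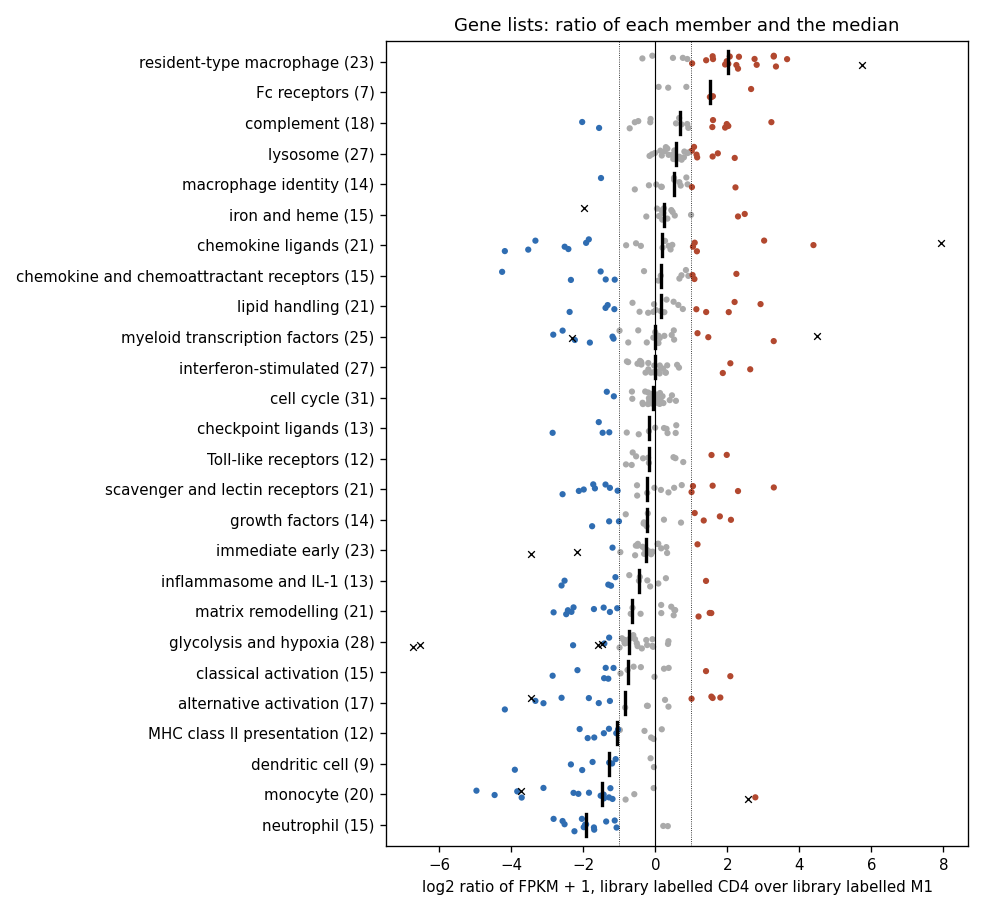
Log2 ratio of FPKM + 1, library labelled CD4 over library labelled M1, for the tested members of 26 gene lists, with the number tested in brackets, 1 point per gene, a bar at each median, dotted lines at 2-fold and crosses for genes listed at 0 in 1 library. The resident-type macrophage list has its median at 2.03 and the monocyte list at -1.48.

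Chemokine ligands were called on both sides. Of 21 tested ligands 6 were higher in the library labelled CD4 and 7 in that labelled M1, with a median of 0.20. The median was -0.10 at a minimum of 10 FPKM, and also over the 20 ligands above 0 in both libraries, where Ccl7 was left out. Of the 6 higher in the library labelled CD4, Ccl7, Ccl8 and Ccl12 belong to the cluster of monocyte chemoattractants on chromosome 11. Ccl12 was at 390 FPKM there and 47.2 FPKM in the library labelled M1, 8.27-fold, and Ccl8 at 603 and 27.8 FPKM. Ccl7 was at 245 FPKM in the library labelled CD4 and listed at 0 in that labelled M1, also with all rows summed. This 0 can be a failed estimate, so the call of Ccl7 is uncertain and is not read as a difference. Ccl2, at the other end of this cluster, was at 363 and 262 FPKM, under the call. The 4 genes lie in the order Ccl2, Ccl7, Ccl12 and Ccl8 between 81849073 and 81930301 in build NCBIM37. Ccl9, Cxcl16 and Pf4 were called with log2 ratios of 1.04 to 1.15. On the side of the library labelled M1, Ccl6 was at 1347 FPKM there and 234 FPKM in the library labelled CD4, 5.75-fold. Ccl17 and Ccl22, ligands of the receptor CCR4 on T helper and regulatory T cells, were at 40.5 and 1.29 FPKM and at 18.6 and 0.952 FPKM in the same order. Cxcl2 and Cxcl3, which draw in neutrophils, were at 57.4 and 14.4 FPKM and at 34.7 and 2.09 FPKM. Cxcl9 and Cxcl10, ligands induced by interferon, were not called, with log2 ratios of 0.37 and -0.40.

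The promoters of Ccl17 and Ccl22 are shown because these genes of the same region and strand of chromosome 8 were both far higher in the library labelled M1. Both lie on the forward strand. They were taken from RefSeq in build GRCm38.p6, for Ccl17 at chr8:94810203-94810502 and for Ccl22 at chr8:94745434-94745733. Capitals mark GAGGAA on either strand as above, with 1 match for Ccl17 and 0 for Ccl22, which says only that these letters are not in this window.
Ccl17: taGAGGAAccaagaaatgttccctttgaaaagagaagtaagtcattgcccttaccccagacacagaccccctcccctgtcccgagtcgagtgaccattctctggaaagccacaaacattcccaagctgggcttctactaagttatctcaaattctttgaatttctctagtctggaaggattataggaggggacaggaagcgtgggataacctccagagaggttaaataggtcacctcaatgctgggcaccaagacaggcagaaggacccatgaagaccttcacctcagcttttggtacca
Ccl22: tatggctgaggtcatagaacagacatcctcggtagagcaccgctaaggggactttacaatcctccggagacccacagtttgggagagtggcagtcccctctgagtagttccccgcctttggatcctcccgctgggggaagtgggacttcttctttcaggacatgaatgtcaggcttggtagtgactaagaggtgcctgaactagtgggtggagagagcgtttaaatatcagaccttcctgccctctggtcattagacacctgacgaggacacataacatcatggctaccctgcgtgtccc

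Among chemoattractant receptors, Cx3cr1, Cxcr3 and Fpr1 were higher in the library labelled CD4 and 5 of 15 tested genes, Ccr2, Ccr7, Cxcr2, Fpr2 and Ltb4r1, in that labelled M1, with a median of 0.15. Ccr1 and Cxcr4 were nearly level, Ccr1 at 76.8 FPKM in the library labelled CD4 and 72.4 FPKM in that labelled M1. Fpr2, a formyl peptide receptor, was under the call with all rows summed. Several lectin receptors were higher in the library labelled M1. Clec7a, the receptor for fungal glucans, was at 70.9 and 21.5 FPKM in the libraries labelled M1 and CD4, and Clec4d at 37.2 and 8.62 FPKM. Olr1, a receptor for oxidised lipoprotein, was at 4.29 and 0.601 FPKM. Over the scavenger and lectin list 5 of 21 tested genes were higher in the library labelled CD4 and 8 in that labelled M1, with a median of -0.23. Of 12 Toll-like receptor genes, Tlr2 and Tlr7 were called higher in the library labelled CD4, a share near the 14.2% of all genes called in either direction. The list median was -0.19, and 0.06 over the same genes with all rows summed. It was 0.24 where the tested genes were also chosen from the summed levels. Tlr7, a sensor of single-stranded RNA, was at 34.2 FPKM there and 10.9 FPKM in the library labelled M1, whereas Tlr2 was at 47.0 and 11.2 FPKM and, with all rows summed, at 47.0 and 58.9 FPKM.

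Transcription factors of the myeloid lineage fell on both sides. Of 25 tested genes 4 were higher in the library labelled CD4 and 7 in that labelled M1. Besides Maf, Klf2, a factor of quiescent cells, was higher in the library labelled CD4, at 17.9 and 7.39 FPKM, and Spic, which is needed for iron-recycling macrophages, was at 3.31 and 0.554 FPKM. Mef2c was at 21.5 FPKM there and listed at 0 in the library labelled M1, and at 31.2 and 10.8 FPKM with all rows summed. Irf4, a factor of alternative activation and of dendritic cells, was at 17.3 FPKM in the library labelled M1 and 2.07 FPKM in that labelled CD4. Cebpe, a factor of granulocytes, was at 7.85 and 0.240 FPKM. Irf5, which drives inflammatory genes, was at 124 and 54.8 FPKM, and Bhlhe40 at 69.0 and 18.9 FPKM. Id2, an inhibitor of DNA binding that dendritic cells need, was at 167 and 34.7 FPKM, 4.82-fold. Cebpa, Zeb2 and Pparg were nearly level, with log2 ratios of -0.06 to 0.09.

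Genes that cut or build the extracellular matrix were more often higher in the library labelled M1. Of 21 tested genes 9 were higher there and 3 in that labelled CD4, with a median of -0.63. Mmp12, the macrophage elastase, was at 398 FPKM in the library labelled M1 and 78.3 FPKM in that labelled CD4, 5.08-fold. Plaur, the urokinase receptor, was at 106 and 18.3 FPKM, while its ligand Plau was at 121 and 172 FPKM and not called. Adam8, a sheddase of leukocytes, was at 120 and 21.4 FPKM. The inhibitors divided, with Timp1 at 27.0 and 10.7 FPKM and Timp2 at 46.2 and 137 FPKM in the libraries labelled M1 and CD4. Of the growth factors, Pdgfc at 20.6 and 4.04 FPKM, Igf1 at 20.0 and 5.06 FPKM, Egf at 3.19 and 0.649 FPKM and Grn at 741 and 347 FPKM were higher in the library labelled CD4 than in that labelled M1. In the same order, Vegfa, which drives the growth of blood vessels, was at 5.79 and 15.5 FPKM and Tgfb1 at 82.0 and 94.9 FPKM. Over 14 tested growth factors 4 were higher in the library labelled CD4 and 3 in that labelled M1, with a median of -0.23. Over the same genes the median with all rows summed was 0.12. It was 0.55 where the tested genes were also chosen from the summed levels, and 0.44 at a minimum of 10 FPKM, so these are medians of other sets of genes. Of the 3 genes higher in the library labelled M1, Osm was under the call with all rows summed, with a log2 ratio of -0.36. The cytokine gene Il10 was under 1 FPKM in both libraries in the rows used. With all rows summed Il10 was called higher in the library labelled CD4, with a log2 ratio of 1.15, so its low value there depends on the rows.

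Glycolytic genes were a little higher in the library labelled M1. Of 28 tested genes of glycolysis and hypoxia 26 had a log2 ratio below 0, with a median of -0.73 against -0.01 over all genes, although 7 were past 2-fold, of which 4 were listed at 0 in the library labelled CD4. Slc2a1, the glucose transporter GLUT1, was at 91.1 FPKM in the library labelled M1 and 33.5 FPKM in that labelled CD4. Egln3, an oxygen sensor that hypoxia induces, was at 8.27 and 0.902 FPKM. Ldha, lactate dehydrogenase, at 376 and 239 FPKM, Pkm2, pyruvate kinase, at 468 and 276 FPKM, and Gapdh at 163 and 90.9 FPKM each lay under the call by a like amount. Hif1a, the oxygen-regulated transcription factor, was at 74.1 and 36.7 FPKM, a log2 ratio of -0.99. Tpi1 and Pfkp, at 106 and 92.7 FPKM in the library labelled M1, were listed at 0 in that labelled CD4 and are not read as differences.

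Genes of the inflammasome leaned the same way, with 5 of 13 higher in the library labelled M1 and 1 in that labelled CD4, and a median of -0.46. Mefv, which encodes pyrin, was at 6.42 and 0.22 FPKM in the libraries labelled M1 and CD4. Il1rn, the natural antagonist of interleukin 1, was at 110 and 46.2 FPKM, and Il1r2, its decoy receptor, at 10.3 and 0.974 FPKM. The sensor gene Nlrp3 was at 21.5 and 12.6 FPKM, not called, and its log2 ratio was -2.17 with all rows summed. Of 13 tested checkpoint ligands 4 were higher in the library labelled M1 and 0 in that labelled CD4, with a median of -0.18. Cd274, which encodes PD-L1, was at 23.8 and 7.996 FPKM, and Pdcd1lg2, which encodes PD-L2, at 2.52 and 0.185 FPKM. Cd86 was at 25.2 and 29.9 FPKM, and Lgals9 at 82.1 and 123 FPKM.

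Cell cycle and interferon genes had medians near 0. Of 31 tested cell cycle genes 0 were higher in the library labelled CD4 and 2 in that labelled M1, Ccne1 and Cdca3, and neither was past 2-fold with all rows summed. Mki67 was at 21.3 FPKM in the library labelled CD4 and 26.1 FPKM in that labelled M1, and the DNA clamp Pcna at 36.9 and 41.1 FPKM. The median over the list was -0.07. Of 27 interferon-stimulated genes 3 were called higher in the library labelled CD4, with a median of -0.02, a share near the 14.2% of all genes. Of these Oas2 was called with all rows summed too, at 66.9 and 28.4 FPKM, and Ifit2 and Gbp3 were not. Isg15, a small protein that interferon induces, was at 26.5 and 36.0 FPKM. Immediate early genes are switched on within minutes of stress or handling. Of 23 tested, 1 was higher in the library labelled CD4 and 3 in that labelled M1, a share near the 14.2% of all genes. Their median was -0.26. Fos was at 159 FPKM in the library labelled CD4 and 153 FPKM in that labelled M1.

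Marker genes of other cells that a tumor or kidney sort could hold had measurable levels in both libraries, and some moved with the label. Fibroblast genes were higher in the library labelled CD4 in 6 of 8 tested genes, with a median of 1.55. Col1a1, a collagen chain, was at 7.96 and 1.58 FPKM, and Dcn, a proteoglycan of fibroblasts, at 2.72 and 0.853 FPKM, while Pdgfra was at 0.130 and 0.0259 FPKM. The summed level of the 12 measured fibroblast genes was 45.4 FPKM in the library labelled CD4 and 12.4 FPKM in that labelled M1. Kidney epithelium genes summed to 104 and 124 FPKM, with 3 of 11 tested genes higher in the library labelled CD4 and 2 in that labelled M1, and a median of 0.58 that was 0.00 at 1 FPKM in both libraries. The 3 were Umod, Slc12a1 and Slc12a3, with log2 ratios of 1.70, 1.05 and 1.16, of which 1 rested on a 0, and the 2 were Cdh1 and Epcam. Of the 18 measured kidney genes, 10 had at least 1 FPKM in the library labelled CD4 and 6 in that labelled M1. Cdh1, which encodes E-cadherin, was at 48.2 FPKM in the library labelled M1 and 3.84 FPKM in that labelled CD4, whereas Krt8, a keratin of epithelium, was at 23.3 FPKM in both. Globin and other erythroid genes summed to 121 and 116 FPKM, and 0 of 5 tested were past 2-fold. B-cell genes summed to 49.2 and 23.5 FPKM, mainly from Blnk and Cd22, and Pax5 was listed at 0 in both, and at 1.48 and 0.798 FPKM with all rows summed. Of 6 tested endothelial genes 0 were called. Of the 3 tested genes of CD8 T and NK cells, Klrb1c was called from a 0. What part RNA of these cells had in the differences above was not tested.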

How the data were processed

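The authors sorted cells from pooled tumors or spleens, made RNAseq libraries with a TruSeq kit, aligned paired reads of 51 bases with TopHat 1.4.1 and Bowtie 0.12.8 to MM9, and estimated levels with Cufflinks 2.1.0 on Ensembl 67. The labels also name Cuffdiff. The authors deposited 1 table of FPKM values with 1 column per library, matched to samples by heading. FPKM divides fragments by transcript length and library size and keeps no depth. The study's methods give the total bases per sample only as a minimum, and depth was estimated here from the lowest repeated values over 3 assumptions on transcript ends. Whether counting used strand is not given in the sources used here, so fragments of overlapping genes cannot be told apart.

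Identifiers were joined to GENCODE for NCBIM37 (Ensembl 65), and 88278 of 90430 with a complete row were found. The first row complete in all 3 columns was kept per identifier and summed per gene. The 10182 rows with no identifier were left out, also where all rows were summed. Genes with at least 1 FPKM in either library were compared by log2(FPKM + 1), and a log2 ratio of at least 1 in size was a call. Genes named were the 15 largest ratios in each direction among protein-coding genes of at least 10 FPKM and 500 bases, members of 33 gene lists, per list up to 4 with the largest ratio in each direction, up to 3 with the highest level and any whose role the list is known for, and Emr1, Itgam, Csf1r and Foxp3. Some genes stand on more than 1 list, and some list members are counted but not reported by name here. The members and lists were chosen with earlier results of these data known. Of the listed genes, Spi1, Irf8, Trac and Ighm were not analysed here, and Il18, Tlr1 and Ly96 had no row complete in all 3 columns. The alternatives were all rows summed, another pseudocount, level filters, scalings, protein-coding genes only, short transcripts left out and 4-fold, and one was added after seeing the data. The calculation was tested on simulated data. Analyses used matplotlib 3.10.9, numpy 2.4.6, pandas 2.3.3 and scipy 1.17.1 in Python 3.11.15.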

Additional observations from a re-analysis of the deposited data

Results flagged for a closer look

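Rows of the table that the comparison did not use held signal for genes listed at 0 in the rows used. Of the 248 tested genes listed at 0 in the library labelled CD4, 155 had a value above 0 in other rows of that library, which is 62.5%. Of the 260 listed at 0 in the library labelled M1, 164 had one, which is 63.1%. Atp5f1, for example, went from 0 to 74.1 FPKM in the library labelled CD4 with all rows summed, beside 84.6 FPKM in the library labelled M1. Rpl14 was at 32.9 FPKM in the library labelled CD4 in both settings and at 0 and 85.2 FPKM in that labelled M1. Values missing from the added rows were read as 0 in these sums. With 1 library per label, samples of a group were not screened for outliers.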

How the results depend on the processing

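No paired analysis was possible because every label has a single library. Under the settings tried, 809 and 839 genes past 2-fold for the labels CD4 and M1 became 381 and 416 at a minimum of 10 FPKM, 452 and 454 at 1 FPKM in both libraries, and 259 and 270 at 4-fold, where by construction fewer genes are tested or the limit is stricter. The other settings stayed within 1.5 times, up to 1042 and 1024 with a pseudocount of 0.1, and down to 549 and 591 with genes above 0 in both libraries (chosen after seeing the data). The T-cell list median went from -1.73 to 3.11 at a minimum of 10 FPKM, where 1 gene, Cd4, was left. Of 9 lists with a median of at least 1 in size, 8 kept their sign in the settings in which their median could be taken, 10 at most, since no list median was taken at 4-fold. The exception was the T-cell list. Of the 809 genes, 523 kept their call in each of 4 settings of rows, pseudocount and scaling, and of the 839 genes 543 did. The FPKM values do not carry the depth, which was estimated here, and this limits statements on low genes.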
